A study of Mus musculus with 6 samples.

Results

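The genes described here are 9 hair follicle genes that do not encode keratins, chosen by name from 33184 genes in the deposited table. They comprise 6 growing-follicle genes (Tchh, Foxn1, Msx2, Hoxc13, Shh and Gata3) and 3 stem cell genes (Lgr5, Lhx2 and Sox9). All 9 were in the table by Ensembl ID, and all 9 were among the 16005 genes that passed a filter on low values (mean level of 0.5 FPKM or more). FPKM (fragments per kilobase of gene, scaled by the library's read total) is a level corrected for gene length and library size. The choice of members used no measured value, but it was made with results of these data known.

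The tissue was skin wound from db/db mice on the BLKS (C57BL/Ks) background, which lack a working leptin receptor and become obese and diabetic. The mice were anesthetized and depilated, and a round wound of 6 mm was cut through epidermis and dermis. At dpi1 (1 day post injury) a control siRNA (NC) or an siRNA against SFRP2, a secreted modulator of Wnt signalling, was injected around the wound, and the tissue was frozen at dpi4. There were 3 libraries labelled NC and 3 labelled SFRP2-siRNA, all of the same genotype, tissue and day. The titles carry D3, and the day they count from is not stated. Each library was treated as 1 animal, and age, sex and hair cycle stage were not given. The treated libraries are numbered 1 to 3, and the study lists 3 siRNA sequences under the same numbers. Whether each library received a different one is not stated.

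A hair follicle cycles between growth (anagen), regression and rest. In growth, proliferating matrix cells around the dermal papilla, a cluster of signalling fibroblasts at the follicle base, form the hair shaft and the inner root sheath that guides it. Between cycles the follicle is kept by stem cells of the bulge and the hair germ, which are present at rest as well as in growth. Sox9 and Lhx2 are also active in growing follicles, and Gata3 is active in epidermis and in T cells, so these genes do not mark a single cell type. In a bulk sample, fewer cells of a type and less RNA per cell cannot be told apart.

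To show the DNA at which these genes start, promoter windows of 250 bases before the start were taken from RefSeq (GRCm38.p6). Windows were found for 5 of the 9 genes, Tchh, Foxn1, Msx2, Gata3 and Lhx2, the last with 2 starts. Hoxc13, Shh, Lgr5 and Sox9 had none in the table used. The windows of Tchh, Msx2 and Gata3 are shown because, in the library that stood apart, Tchh was the farthest below the others, Msx2 was intermediate and Gata3 was not below them. Capitals mark matches on either strand to 5 short motifs. These are the LEF/TCF motif CTTTGA, the motif AGATAA of GATA factors, the homeodomain motif TAATTA, the CCAAT box, and the FOXN1 core GACGC, which reads GCGTC on the opposite strand.
Tchh, chr3:93442080-93442329, plus strand: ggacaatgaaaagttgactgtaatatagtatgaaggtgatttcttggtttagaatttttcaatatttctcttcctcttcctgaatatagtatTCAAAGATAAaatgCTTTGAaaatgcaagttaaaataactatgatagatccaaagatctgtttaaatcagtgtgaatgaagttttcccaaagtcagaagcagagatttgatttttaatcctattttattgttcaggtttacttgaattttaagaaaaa
Msx2, chr13:53472781-53473030, minus strand: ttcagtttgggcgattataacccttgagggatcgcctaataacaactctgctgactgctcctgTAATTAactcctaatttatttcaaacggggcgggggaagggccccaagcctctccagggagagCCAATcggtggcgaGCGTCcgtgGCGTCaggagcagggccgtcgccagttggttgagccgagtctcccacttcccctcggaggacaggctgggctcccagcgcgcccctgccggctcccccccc
Gata3, chr2:9878601-9878850, minus strand: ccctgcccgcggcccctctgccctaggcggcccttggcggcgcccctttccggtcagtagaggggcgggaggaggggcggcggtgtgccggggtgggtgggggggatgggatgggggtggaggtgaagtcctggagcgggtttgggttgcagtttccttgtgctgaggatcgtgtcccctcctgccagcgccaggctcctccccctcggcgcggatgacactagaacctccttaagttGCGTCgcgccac
The Tchh window was AT-rich, with 27.6% GC and 0 CpG. Only 0.756% of 32817 windows had a lower GC content. It held CTTTGA at 158 and 144 bases before the start, and an AGATAA at 154 bases that overlapped the first of them. The Msx2 window had 61.6% GC and 16 CpG, with TAATTA at 187, CCAAT at 124 and GACGC at 110 and 101 bases. The Gata3 window had 70% GC and 19 CpG, with GACGC at 12 bases. Foxn1 had 63.2% GC, and the windows of Lhx2 had 72.8% and 68.4%, against a median of 52.4% over all windows. Among all windows, CTTTGA was found in 13.8%, AGATAA in 9.99%, TAATTA in 4.85%, CCAAT in 33.8% and GACGC in 22.6%. A TATAAA between 40 and 20 bases before the start was found in 1.996% of windows and in none of those of the 5 genes. These matches describe letters only, and binding was not measured.

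The read total that scales the FPKM values, recovered from them, lay between 42.9 M and 47.1 M reads (M for mega) a library. Reads recovered for genes made up 99.6% to 99.8% of it, so it counts reads in genes and not all reads sequenced. The siRNA target was checked first. Sfrp2 had 11.6, 40.6 and 14.1 FPKM in NC 1, 2 and 3, and 50.6, 54.6 and 55.2 FPKM in SFRP2-siRNA 1, 2 and 3. The target was thus higher in every library labelled SFRP2-siRNA (log2 fold change 1.45, SE 0.43), which goes against the label. It did not pass the test (limma adjusted p = 0.518, exact permutation p = 0.1). Every direction given here is therefore one between labels, and no loss of Sfrp2 RNA was seen in these libraries. The study reports less SFRP2 protein, by immunofluorescence at dpi3, in diabetic wounds given the siRNA, whereas the tissue here was frozen at dpi4. Protein was not measured here. For the hair follicle genes the library labelled SFRP2-siRNA 1 stood apart from the other 5, and each group difference of the 9 genes is given with and without it.

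None of the 9 genes differed between the labels beyond the spread of the libraries. With limma, 0 of the 9 had an adjusted p under 0.05, and over all genes tested 0 of 16005 did (0%), with 1533 genes at an unadjusted p under 0.05. Limma voom on the recovered reads, an alternative chosen after seeing the data, called 0 genes as well, with 1537 at an unadjusted p under 0.05. Unadjusted p was under 0.05 for 0 of the 9 genes, against 6.72% of all genes in the higher and 2.86% in the lower direction. The libraries of both labels overlapped for all 9 genes, whereas 13.9% of all genes were higher and 3.92% lower without overlap. Without SFRP2-siRNA 1, 2 of the 9 genes, Foxn1 and Shh, were higher at an unadjusted limma p under 0.05, and 0 were lower, against 5.56% and 3.64% of all genes. That library was picked for its low follicle genes, so leaving it out by itself raises their SFRP2-siRNA mean. Adjusted limma p with all libraries ran from 0.547 to 0.963 over the 9 genes, and the exact permutation p from 0.3 to 1, where 0.1 is the smallest that 3 against 3 libraries allow.

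The pattern lay in a single library. In SFRP2-siRNA 1, 8 of the 9 genes had their lowest level of the 6 libraries, compared with 14.3% of all genes tested. In that library 4 of the 9, Tchh, Msx2, Hoxc13 and Shh, were more than 4 times below the lowest of the other 5, compared with 2.27% of all genes. Those 4 were growing-follicle genes, 4 of 6, and 0 of the 3 stem cell genes were as low. The cut of 4 times was not planned beforehand. Foxn1 (3.67-fold) and the stem cell gene Lhx2 (3.74-fold) lay just short of it, so these counts depend on the cut. Gata3 was the exception, with a lower level in NC 2. With 1 such library, this is a description and has no replicate.

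**Figure D1:**
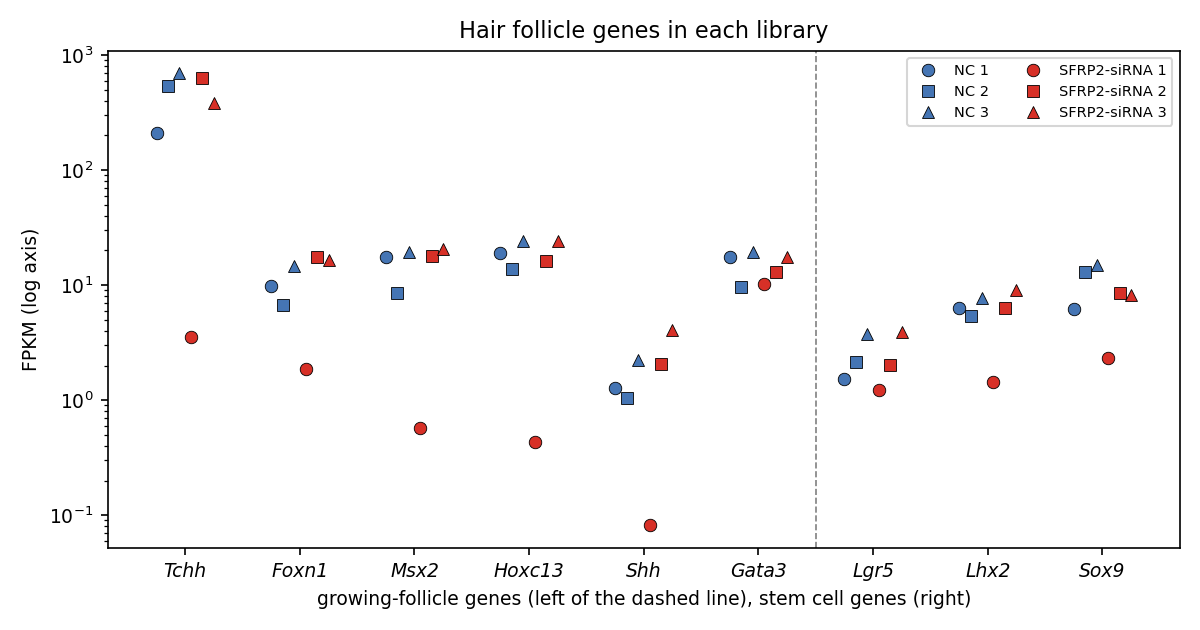
FPKM on a log axis for each of the 9 genes (x axis) in the 6 libraries, with NC in blue, SFRP2-siRNA in red and circles, squares and triangles for replicates 1, 2 and 3. The red circle, SFRP2-siRNA 1, lies lowest for every gene but Gata3, at 3.51 FPKM for Tchh. The other 5 libraries of both labels intermingle for every gene but Foxn1, where SFRP2-siRNA 2 and 3 lie above all NC libraries.

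Tchh (ENSMUSG00000052415) encodes trichohyalin, a structural protein that hardens the inner root sheath and the medulla of the hair. Levels in NC 1, 2 and 3 were 211, 539 and 693 FPKM. Those in SFRP2-siRNA 1, 2 and 3 were 3.51, 637 and 381 FPKM. The level in SFRP2-siRNA 1 was 60.1-fold below that in NC 1, the lowest of the other 5, and still rested on 878 reads. Group means were 481 ± 246 and 340.5 ± 318 FPKM (SD, n = 3 each), and the log2 fold change was -2.06 (SE 1.80, limma adjusted p = 0.622). Without SFRP2-siRNA 1 it was 0.20 (SE 0.53, limma adjusted p = 0.861). Tchh was the most abundant of the 9 per length, and its lowest NC library was above every value of the other 8 genes.

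Hoxc13 (ENSMUSG00000001655) is a homeobox factor required for hair shaft differentiation, where it activates hair keratin genes. It had 18.9, 13.8 and 24.2 FPKM in NC 1, 2 and 3, and 0.435, 16.1 and 24.3 in SFRP2-siRNA 1, 2 and 3. The low library was 31.7-fold under NC 2, on 46 reads. The other 5 libraries kept within 1.76-fold of each other. The log2 fold change was -1.19 (SE 1.02, limma adjusted p = 0.616), and 0.09 (SE 0.27) without SFRP2-siRNA 1 (limma adjusted p = 0.875).

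Msx2 (ENSMUSG00000021469), a homeobox factor of the hair matrix and shaft, had 17.6, 8.52 and 19.3 FPKM in NC 1, 2 and 3. SFRP2-siRNA 1, 2 and 3 held 0.568, 18.1 and 20.8 FPKM, on 80 reads in the first. SFRP2-siRNA 1 was 14.99-fold under NC 2. Outside that library, the values of both labels ran from 8.52 to 20.8 FPKM. Its log2 fold change was -0.82 (SE 0.99, limma adjusted p = 0.706), and 0.41 (SE 0.33) without SFRP2-siRNA 1 (limma adjusted p = 0.653).

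Foxn1 (ENSMUSG00000002057), the winged-helix factor mutated in nude mice and needed to form a hair shaft, showed a smaller deficit. Levels were 9.78, 6.78 and 14.8 FPKM in NC 1, 2 and 3, and 1.85, 17.6 and 16.5 FPKM in SFRP2-siRNA 1, 2 and 3. SFRP2-siRNA 1 was 3.67-fold under NC 2, on 255 reads, and SFRP2-siRNA 2 was the highest of all 6. The log2 fold change was -0.17 (SE 0.73, limma adjusted p = 0.920). Without SFRP2-siRNA 1 it was 0.72 (SE 0.29), with an unadjusted limma p of 0.0405 and an adjusted p of 0.521.

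Shh (ENSMUSG00000002633), the hedgehog ligand secreted by the growing hair matrix, had the lowest levels of the 6 growing-follicle genes. Levels were 1.27, 1.03 and 2.22 FPKM in NC 1, 2 and 3, and 0.082, 2.05 and 4.06 FPKM in SFRP2-siRNA 1, 2 and 3. Only 10 reads lay behind the value in SFRP2-siRNA 1, 12.6-fold under NC 2. SFRP2-siRNA 3 was the highest library, so the libraries labelled SFRP2-siRNA held both ends of the range. The log2 fold change was 0.06 (SE 0.54, limma adjusted p = 0.963), the only one of the 9 above 0. It was below 0 under median-of-ratios and equal-sum scaling. Without SFRP2-siRNA 1 it was 0.68 (SE 0.28), with an unadjusted limma p of 0.0448 and an adjusted p of 0.534. Exons of Shh overlap antisense genes in GENCODE vM21 and the counting strand was not stated, so its values are uncertain.

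Gata3 (ENSMUSG00000015619) is a zinc finger factor of inner root sheath formation, and the member that did not follow the others. Levels were 17.5, 9.71 and 19.3 FPKM in NC 1, 2 and 3, and 10.2, 12.9 and 17.4 FPKM in SFRP2-siRNA 1, 2 and 3. SFRP2-siRNA 1 lay above NC 2 and within the range of NC. The log2 fold change was -0.16 (SE 0.29, limma adjusted p = 0.801), and 0.01 without SFRP2-siRNA 1. Its exons overlap a gene on the same strand, 9230102O04Rik, and an antisense gene, so reads of these cannot be told apart. T cells and innate lymphoid cells, which also use Gata3, were looked at through 10 marker genes, of which 6 were tested. None of the 6 was lowest in SFRP2-siRNA 1, and the summed level of the 10 was 9.81 to 13.7 FPKM in NC and 15.4 to 19.3 in the libraries labelled SFRP2-siRNA, with 19.3 in SFRP2-siRNA 1. The largest parts of the sum in SFRP2-siRNA 1 were Il7r (5.21 FPKM), Rora (4.53 FPKM) and Il1rl1 (3.82 FPKM). Cd3g, a T cell receptor subunit, had 0.416 to 0.467 FPKM in NC and 0.584 to 1.07 in the libraries labelled SFRP2-siRNA. Cd3e was also higher there without overlap. The labels overlapped for Cd3d, Cd8a and Il13, which were lowest in SFRP2-siRNA 3. Rora, Cd3e, Cd3d, Cd8a and Il13 were named after their values were seen. The part of T cells and innate lymphoid cells in the level of Gata3 was not tested.

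The 3 stem cell genes had their lowest level in the same library, but by less. Lgr5 (ENSMUSG00000020140), the R-spondin receptor of cycling stem cells in the bulge and hair germ, had 1.53, 2.15 and 3.79 FPKM in NC 1, 2 and 3. SFRP2-siRNA 1, 2 and 3 held 1.22, 2.01 and 3.89 FPKM. The low library was only 1.25-fold under NC 1, on 538 reads. The log2 fold change was -0.07 (SE 0.34, limma adjusted p = 0.927), and 0.19 without SFRP2-siRNA 1.

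Lhx2 (ENSMUSG00000000247), a LIM-homeobox factor of bulge and hair germ cells, had 6.33, 5.34 and 7.76 FPKM in NC 1, 2 and 3. SFRP2-siRNA 1, 2 and 3 held 1.43, 6.35 and 9.02 FPKM. At 3.74-fold under NC 2, it was the stem cell gene farthest from the other libraries, about as far as Foxn1 (3.67-fold). The log2 fold change was -0.40 (SE 0.50, limma adjusted p = 0.717), and 0.21 without SFRP2-siRNA 1.

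Sox9 (ENSMUSG00000000567), an HMG-box factor of the outer root sheath and of bulge stem cells, had 6.14, 13.0 and 14.98 FPKM in NC 1, 2 and 3. SFRP2-siRNA 1, 2 and 3 held 2.34, 8.50 and 8.14 FPKM, so SFRP2-siRNA 1 was 2.62-fold under NC 1. Sox9 had the smallest p of the 9 genes and was the only one whose log2 fold change stayed below 0 without SFRP2-siRNA 1. It was -0.82 (SE 0.48, limma adjusted p = 0.547) with all libraries and -0.33 (SE 0.34, limma adjusted p = 0.682) without that one. Sox9 is also a cartilage factor, and 8 cartilage genes were low in all libraries, with 3 of them passing the filter. None of the 3 was lowest in SFRP2-siRNA 1. Of those under the filter, Acan, a cartilage proteoglycan, and Sox5 were lowest there, both named after their values were seen. Acan was 3.19-fold below the next library (0.078 against at least 0.249 FPKM) and Sox5 1.575-fold (0.225 against at least 0.355 FPKM). The 8 genes summed to 3.96, 4.25 and 4.18 FPKM in NC and 3.75, 5.24 and 6.23 in SFRP2-siRNA, lowest in SFRP2-siRNA 1. The part of such cells in the level of Sox9 was not tested.

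By mean level in NC the order was Tchh, Hoxc13 (18.9 FPKM), Gata3 (15.5), Msx2 (15.2), Sox9 (11.4), Foxn1 (10.4), Lhx2 (6.48), Lgr5 (2.49) and Shh (1.51). Among neighbours, the NC libraries of Tchh and Hoxc13 did not overlap, nor did those of Lhx2 and Lgr5. The NC libraries of every other neighbouring pair overlapped. In SFRP2-siRNA 1 the order was led by Gata3 with 10.2 FPKM and Tchh with 3.51 FPKM. Hoxc13, second in NC, came eighth there, above Shh.

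**Figure D2:**
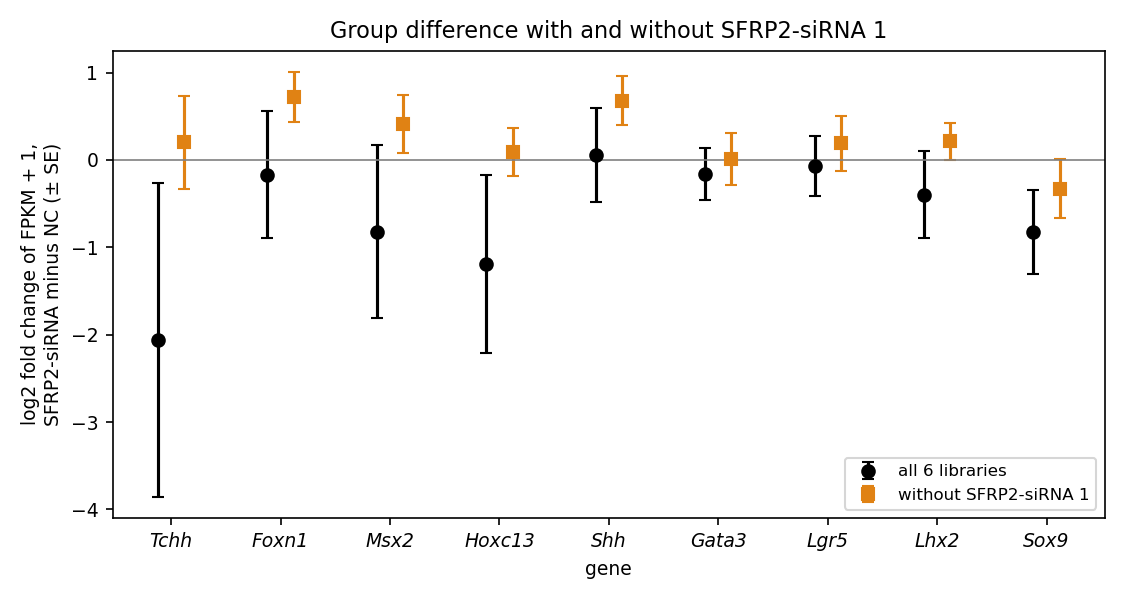
Limma log2 fold change of FPKM + 1, SFRP2-siRNA minus NC, with its SE, for each of the 9 genes (x axis), with all 6 libraries (black circles) and without SFRP2-siRNA 1 (orange squares). With all libraries 8 of 9 points lie below 0, and without SFRP2-siRNA 1 8 of 9 lie above 0, Sox9 being the one below. No adjusted p passed 0.05 in either set.

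To compare the growing-follicle genes with the stem cell genes, log2(FPKM + 1) was centred on each gene's mean over the 6 libraries and averaged over the members. The growing-follicle mean was 0.26, 0.01 and 0.82 in NC 1, 2 and 3, and -2.51, 0.62 and 0.80 in SFRP2-siRNA 1, 2 and 3. The stem cell mean was -0.17, 0.20 and 0.62 in NC 1, 2 and 3, and -1.12, 0.06 and 0.42 in SFRP2-siRNA 1, 2 and 3. Both means were lowest in SFRP2-siRNA 1 and high in NC 3 and SFRP2-siRNA 3. The growing-follicle mean minus the stem cell mean was -1.39 in SFRP2-siRNA 1 and ran from -0.18 to 0.57 in the other 5 libraries. The difference between labels was -0.72 for the growing-follicle mean and -0.43 for the stem cell mean. Without SFRP2-siRNA 1 these were 0.35 and 0.02. Low levels move less on this scale, so a gene such as Lgr5 or Shh weighs less than Tchh.

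**Figure D3:**
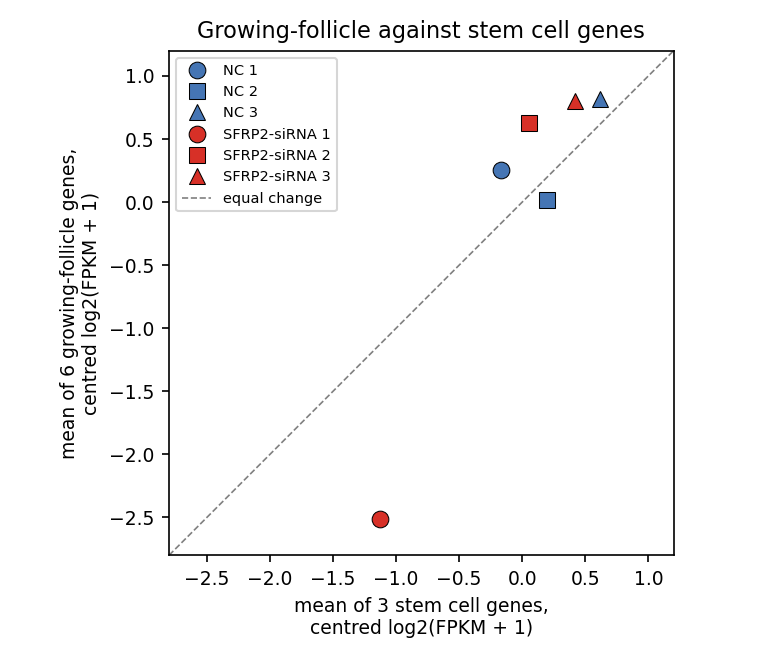
Mean centred log2(FPKM + 1) of the 6 growing-follicle genes (y axis) against that of the 3 stem cell genes (x axis), 1 point a library, with a dashed line of equal change. SFRP2-siRNA 1 lies at -1.12 and -2.51, under the dashed line, and the other 5 libraries of both labels lie between -0.17 and 0.62 on the x axis.

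The structural products of the growing hair were also low in that library. Of 20 hair keratins listed, 19 were tested, and Krt85 was not analysed here. All 19 were lowest in SFRP2-siRNA 1, by 9.34-fold to 120.6-fold under the lowest of the other 5, with a median of 63.3-fold. Krt71, a keratin of the inner root sheath, had 744, 1099 and 1508 FPKM in NC 1, 2 and 3, and 6.17, 1591 and 1080 in SFRP2-siRNA 1, 2 and 3. Krt31, a keratin of the hair shaft cortex, had 141, 60.3 and 153 FPKM in NC and 1.39, 271 and 307 in SFRP2-siRNA. Of the 57 keratin-associated protein genes tested, the matrix proteins between the shaft's filaments, all 57 were lowest in SFRP2-siRNA 1 and 55 by more than 4 times. The most abundant, Krtap7-1, had 1010, 543 and 1115 FPKM in NC, and 8.59, 2266 and 1644 in SFRP2-siRNA. Krtap8-1 had 723, 504 and 1206 FPKM in NC, and 6.78, 2447 and 1493 in SFRP2-siRNA. Many keratins and keratin-associated proteins are near-identical, so single values may share reads. No gene of either family passed the test, with 0 at an unadjusted limma p under 0.05 when all libraries were used. Without SFRP2-siRNA 1 none had an adjusted limma p under 0.05 either. At an unadjusted limma p under 0.05, 8 of the 19 hair keratins, all of the hair shaft, were then higher in SFRP2-siRNA. So were 48 of the 57 keratin-associated protein genes, against 5.56% of all genes. The library left out was picked for its low follicle genes, which by itself raises their SFRP2-siRNA mean. Genes of these families also moved together over the libraries, so the counts are not separate results. The smallest adjusted limma p without that library was 0.246 for the keratins and 0.207 for the keratin-associated proteins. Krt31 had a log2 fold change of 1.39 (SE 0.41, limma adjusted p = 0.370) without that library. The median log2 fold change turned from -1.08 to 0.93 for the hair keratins and from -0.64 to 1.36 for the keratin-associated proteins.

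Other genes of the growing follicle were low in the same library. Of 15 listed, 14 were tested, all 14 were lowest in SFRP2-siRNA 1, and 9 were more than 4 times below. Dlx3, a homeobox factor of the matrix and shaft, had 66.2, 34.5 and 75.1 FPKM in NC and 1.19, 64.8 and 77.9 in SFRP2-siRNA. Padi3, an enzyme that modifies trichohyalin, had 22.6, 36.1 and 50.3 FPKM in NC and 0.480, 45.7 and 35.0 in SFRP2-siRNA. Fgf5, a signal that ends hair growth, had 1.196, 2.74 and 6.54 FPKM in NC and 0.047, 1.91 and 3.08 in SFRP2-siRNA. The median log2 fold change of the 14 was -0.51, and 0.39 without SFRP2-siRNA 1, beside 0.13 and 0.15 over all genes tested.

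In the pathway downstream of Shh the deficits were smaller. Of 11 hedgehog genes, 10 were tested, 5 were lowest in SFRP2-siRNA 1 and none was more than 4 times below. Gli1, a transcription factor and target induced by hedgehog signalling, had 4.45, 4.25 and 9.11 FPKM in NC and 1.16, 5.73 and 10.1 in SFRP2-siRNA. It was lowest in SFRP2-siRNA 1, by 3.67-fold, and highest in SFRP2-siRNA 3, as was Shh itself. Ptch1, the main receptor and also a target, was 1.46-fold below the lowest of the others. The signal transducers Smo and Sufu and the co-receptors Boc, Cdon and Gas1 were not lowest in SFRP2-siRNA 1. Cdon was the one hedgehog gene at an unadjusted limma p under 0.05 (log2 fold change 0.47, SE 0.18, limma adjusted p = 0.518), and it was higher in the libraries labelled SFRP2-siRNA without overlap. Without SFRP2-siRNA 1 its log2 fold change was 0.40 (SE 0.20, limma adjusted p = 0.574).

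Beside the stem cell genes, 15 other bulge genes were examined, and 8 of them were lowest in SFRP2-siRNA 1. Only Tbx1, a bulge factor, was more than 4 times below, at 5.35-fold. Krt15, a bulge keratin also made in basal epidermis, had 161 FPKM in SFRP2-siRNA 1, within the 119 to 241 FPKM of NC. Tbx1 and Krt15 were named after their values were seen. Cd34, a surface marker of bulge cells also found on vessels, had 12.0, 22.9 and 16.6 FPKM in NC and 20.1, 28.2 and 28.6 in SFRP2-siRNA. Lgr6, a receptor related to Lgr5, had 3.58, 2.37 and 2.10 FPKM in NC and 1.93, 1.36 and 1.86 in SFRP2-siRNA, without overlap between the labels (log2 fold change -0.42, SE 0.18, limma adjusted p = 0.518; -0.48 without SFRP2-siRNA 1). Plet1, a gene of the upper follicle, had a log2 fold change of -1.196 (SE 0.61, limma adjusted p = 0.528), and of -0.70 (SE 0.52, limma adjusted p = 0.641) without SFRP2-siRNA 1. No bulge gene had an unadjusted limma p under 0.05 with all libraries. Without SFRP2-siRNA 1, 2 did, Cd34 and Dkk3, both higher, against 5.56% of all genes in that direction. The median log2 fold change of the 15 was -0.09, and 0.04 without SFRP2-siRNA 1.

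Among the R-spondins, the ligands of Lgr5, and their partners, 6 of 7 genes were tested and 5 were lowest in SFRP2-siRNA 1. Rspo4, a ligand known for nail formation, was the one more than 4 times below, with 1.49, 1.89 and 2.72 FPKM in NC and 0.098, 1.08 and 1.89 in SFRP2-siRNA. Rspo3 had 0.629 to 1.32 FPKM in NC and 0.573 to 1.32 in SFRP2-siRNA, and Rnf43, a ligase that R-spondins block, had 1.49 to 2.49 and 1.02 to 2.68 FPKM. The libraries of both labels overlapped for all 6 genes.

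**Figure D4:**
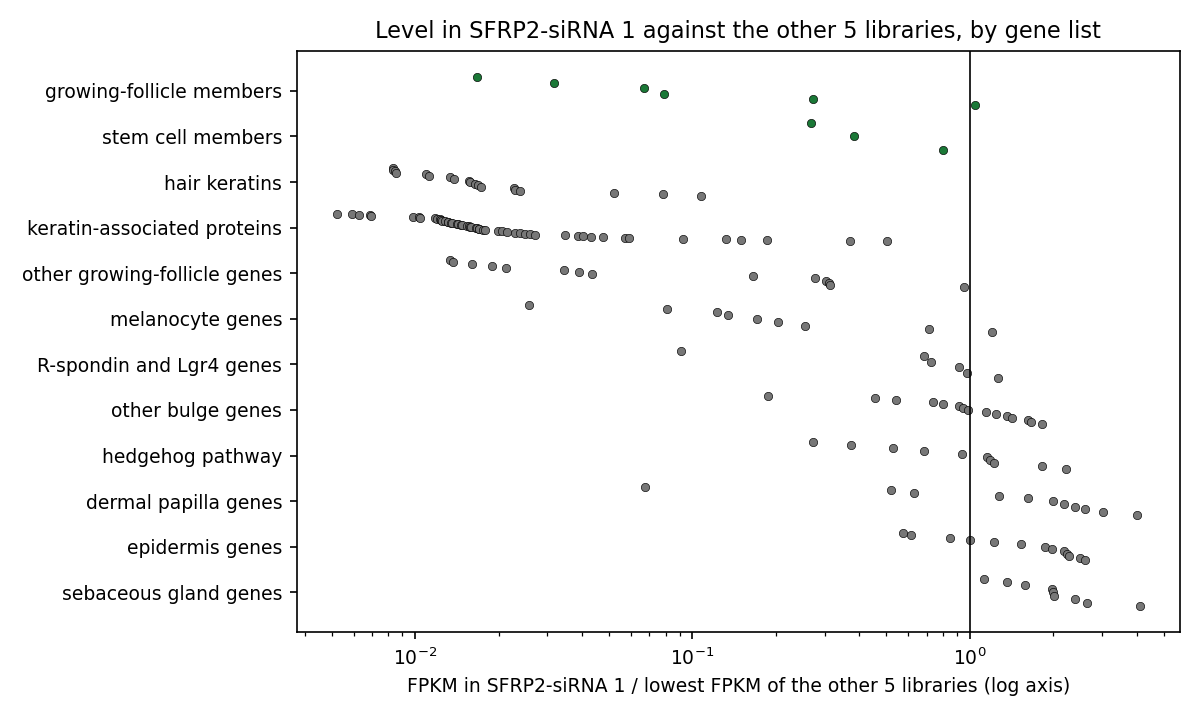
FPKM in SFRP2-siRNA 1 divided by the lowest FPKM of the other 5 libraries (x axis, log), 1 point a gene, by gene list (y axis), with the 9 genes in green. Hair keratins, keratin-associated proteins, Tchh, Hoxc13, Msx2 and Shh reach farthest below the line at 1. Foxn1 (3.67-fold below) and the 3 stem cell members (1.25-fold to 3.74-fold below) lie nearer to it, and Gata3 lies just above it. The 3 tested keratin-associated protein genes listed at 0 in SFRP2-siRNA 1 are not drawn.

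Other cell types of the follicle were compared to see what moved with the members. Of 9 melanocyte genes, 8 were lowest in SFRP2-siRNA 1 and 6 were more than 4 times below. Their summed level was 33.5 to 133.5 FPKM in NC and 9.44, 116.6 and 234.1 in SFRP2-siRNA 1, 2 and 3. No melanocyte gene was at 0. Mlana had 0.353 FPKM and Oca2 0.012 FPKM in SFRP2-siRNA 1, whereas Mitf, the melanocyte master regulator used in other cells too, had 3.15 FPKM, within the range of NC. Of 15 dermal papilla genes, 11 were tested, 3 were lowest in SFRP2-siRNA 1 and 1 was more than 4 times below. That one was Corin, a protease of the dermal papilla named after its values were seen, with 1.84, 1.03 and 2.52 FPKM in NC and 0.069, 1.84 and 2.82 in SFRP2-siRNA. Fgf7, a growth factor of dermal fibroblasts, went the other way, with 2.21, 4.59 and 3.28 FPKM in NC and 8.86, 6.54 and 5.36 in SFRP2-siRNA. The papilla genes summed to 49.9 to 70.2 FPKM in NC and 61.2 to 95.3 in the libraries labelled SFRP2-siRNA, highest in SFRP2-siRNA 1. Most of the sum there came from Crabp1 (50.7 FPKM) and Sox18 (20.3 FPKM), which were also highest there. Alx4 and Wif1, like Corin, were lowest there, by 1.59-fold and 1.92-fold. Crabp1, Sox18, Alx4 and Wif1 were named after their values were seen. The part of these cell types in the level of the members was not tested.

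Markers of epidermis were divided in SFRP2-siRNA 1. Of 13 genes, 3 were lowest there, the differentiation genes Ivl, Dsc1 and Dsg1a, and none was more than 4 times below. Their summed level was 4402, 5099 and 6925 FPKM in NC and 7294, 6146 and 3660 in SFRP2-siRNA, highest in SFRP2-siRNA 1. Most of that sum came from the basal keratins Krt14 (3930 FPKM) and Krt5 (2097 FPKM), which were also highest there. Krt10, a gene of differentiating layers, had 501 to 785 FPKM in NC and 271, 714 and 222 in SFRP2-siRNA 1, 2 and 3. SFRP2-siRNA 3 was thus its lowest library, and also that of Krt1, Krtdap and Lor. The genes of this list other than Lor and Krt10 were named after their values were seen. Lor, a protein of the cornified layer, had 133 to 224 FPKM in NC and 77.8 to 125 in SFRP2-siRNA. None of the 9 sebaceous gland, 10 cell cycle, 8 macrophage, 8 dermal fibroblast and 8 adipocyte genes was lowest in SFRP2-siRNA 1. The summed macrophage level was 702 to 1154 FPKM in NC and 1858, 1445 and 1280 in SFRP2-siRNA 1, 2 and 3. The summed fibroblast level was 900 to 1982 FPKM in NC and 2268, 2293 and 2209 in SFRP2-siRNA 1, 2 and 3. Both were thus higher in all 3 libraries labelled SFRP2-siRNA, and not in SFRP2-siRNA 1 alone. None of the 7 muscle genes tested was more than 4 times below. The read total of SFRP2-siRNA 1, 42.9 M reads, was the lowest of the 6 but near that of the others.

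The other 5 libraries also differed in their follicle genes. NC 2 had the lowest level of the 5 for Foxn1, Msx2, Hoxc13, Shh, Gata3 and Lhx2, and NC 1 for Tchh, Lgr5 and Sox9. The highest of all 6 libraries was NC 3 for Tchh, Gata3 and Sox9, SFRP2-siRNA 2 for Foxn1 and SFRP2-siRNA 3 for the remaining 5 genes. Over the 5 libraries, Shh varied most (3.92-fold) and Lhx2 least (1.69-fold). Tchh and the 4 growing-follicle regulators Foxn1, Msx2, Hoxc13 and Shh had opposite orders in NC 1 and NC 2. Tchh was 2.55-fold higher in NC 2 than in NC 1, whereas the 4 regulators were 0.484 to 0.817 times their NC 1 level. Gata3 went with the regulators and not with Tchh, at 0.555 times.

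The keratins split the same way when grouped by the layer they build, a grouping made after their values were seen. All 7 inner root sheath keratins were higher in NC 2 than in NC 1, by 1.09-fold to 2.80-fold. All 11 hair shaft keratins tested were lower, at 0.307 to 0.956 times. Krt75, the remaining hair keratin tested, was placed in neither group and was at 0.855 times. The mean of SFRP2-siRNA 2 and 3 over the mean of NC had a median of 1.02 for the inner root sheath keratins and 2.32 for the shaft keratins. The same ratio was 1.06 for Tchh and 1.07 to 2.03 for the 4 regulators. Tchh, itself a product of the inner root sheath, lay among the keratins of that layer. Gata3, a factor of the same layer, was at 0.555 times in NC 2 over NC 1, within the range of the shaft keratins. These ratios have no test.

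**Figure D5:**
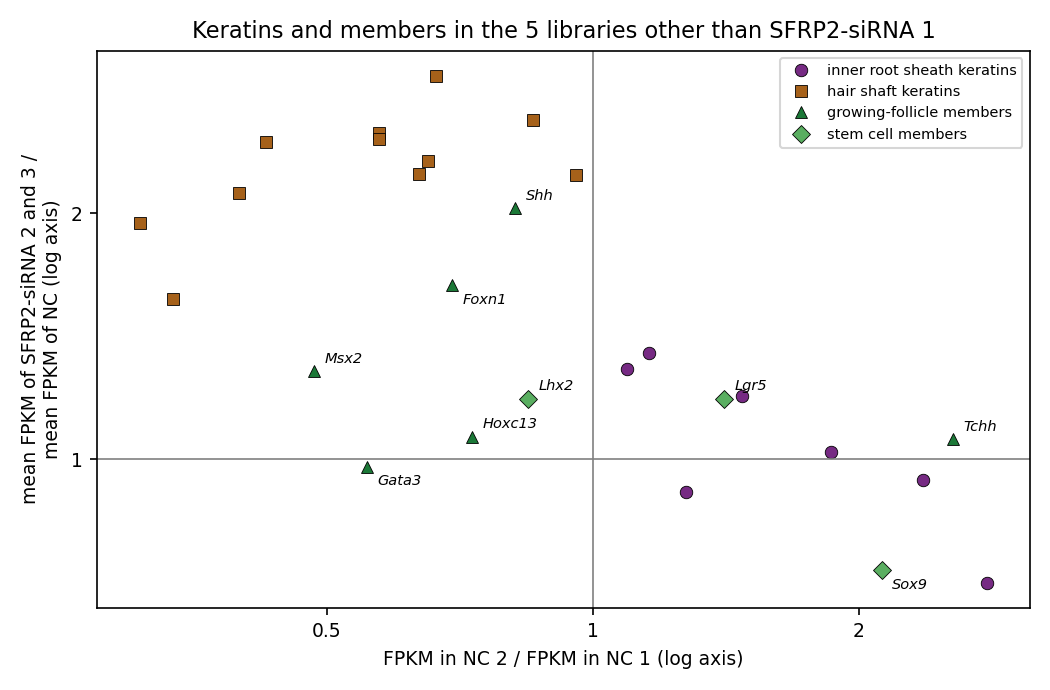
FPKM in NC 2 over NC 1 (x axis, log) against the mean of SFRP2-siRNA 2 and 3 over the NC mean (y axis, log), 1 point a gene, for inner root sheath keratins (circles), hair shaft keratins (squares) and the 9 members (triangles and diamonds). Shaft keratins lie upper left with medians of 0.573 and 2.32, inner root sheath keratins lie to the right of 1 with medians of 1.48 and 1.02, and Tchh lies at 2.55 and 1.06.

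The genes whose pattern was most like the members were found by Pearson's r over the 6 libraries among 15882 genes, with the members left out. For the growing-follicle mean these were Sct (r = 0.997), Phldb3 (0.996), Kcnk16 (0.996), Krtap26-1 (0.995) and Golga7b (0.994). For the stem cell mean they were Adgra3 (0.997), Arhgef19 (0.996), Foxo6 (0.996), Ephb3 (0.995) and Vdr (0.994), the last a nuclear receptor needed for the hair cycle. Each r rests on 6 libraries of which SFRP2-siRNA 1 is the far point, so it is given as a description. Sct had 6.75, 5.66 and 12.1 FPKM in NC and 0.289, 9.31 and 12.1 in SFRP2-siRNA. Vdr had 20.3, 25.6 and 42.2 FPKM in NC and 6.07, 26.2 and 37.7 in SFRP2-siRNA, a smaller deficit than that of Sct.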

How the data were processed

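Paired-end mRNA libraries were made from skin wound RNA. The authors deposited 1 table of FPKM values for 33184 Ensembl genes. The submitters' processing notes name HISAT2, featureCounts and Subread; versions, build, annotation and strand setting are not given in the sources used here. Symbols matched 32582 genes. With GENCODE vM21 gene lengths, 96.5% of genes gave whole reads (tolerance 0.01 reads), and another length did so for 1163 genes. Of values of 1 to 20 reads, 63.8% were even, so mates were counted singly. No libraries were duplicates.

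Values were tested as log2(FPKM + 1), which understates changes of low genes, with limma 3.58.1 (trend) in R 4.3.3, two-sided, Benjamini-Hochberg adjusted over the 16005 genes averaging 0.5 FPKM or more. The thresholds were the study's: adjusted p under 0.05 and absolute log2 fold change above 1. The study applied them to a different test and reported genes past them in both directions for these wounds. The count of genes passing here is that of limma on FPKM, and the study's own test was not repeated. Exact permutation tests were two-sided and used scipy 1.17.1. The limma step was tested on simulated data. P-values measure the spread between libraries, since separate animals are not stated for each. Named genes were the members, Sfrp2, up to 3 genes of smallest p per list, any hair keratin or hedgehog gene, 2 keratin-associated genes of highest level and 5 genes most like each mean; others are named as chosen later. The members and lists were chosen with earlier results of these data known. Alternatives were another pseudocount, filter, scaling, no trend, sample weights, a replicate block, leaving out each library and, added later, voom on recovered reads.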

Additional observations from a re-analysis of the deposited data

How the results depend on the processing

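No alternative brought a gene past the threshold, and the smallest adjusted limma p was 0.119 for any gene and 0.273 for a member. Of 143 refits of the 9 genes, 123 kept the direction and 20 reversed it, 7 of these without SFRP2-siRNA 1. Leaving out 1 library at a time, the log2 fold change ran from -3.37 to 0.20 for Tchh, -0.63 to 0.72 for Foxn1, -1.49 to 0.41 for Msx2, -1.98 to 0.094 for Hoxc13, -0.43 to 0.68 for Shh, -0.45 to 0.012 for Gata3, -0.38 to 0.19 for Lgr5 and -0.81 to 0.21 for Lhx2. The highest value was without SFRP2-siRNA 1, except for Gata3 (without NC 3). Sox9 stayed below 0, from -1.18 to -0.33. The difference between labels ran from -1.31 to 0.35 for the growing-follicle mean, from -0.75 to 0.024 for the stem cell mean and from -0.65 to 0.33 for the first minus the second.

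Sample weights were 0.360 for NC 1, 0.495 for SFRP2-siRNA 1, 5.27 for SFRP2-siRNA 2 and 0.891 to 1.21 for the others. With them Foxn1 was 0.59, Msx2 0.20, Tchh -0.34, Hoxc13 -0.34 and Lhx2 -0.056. Shh was -0.033 with equal sums, -0.035 with median-of-ratios scaling, -0.38 with a pseudocount of 0.1 and -0.63 with voom. Over all genes, the median difference (log2) was 0.125 as deposited, 0.231 after scaling to equal sums and 0.000338 after median-of-ratios scaling. A filter at 2 FPKM left out Shh. The cause of these changes was not tested. Deviations of same-numbered libraries correlated at -0.05, -0.15 and 0.38. Each value rests on 1 pair of libraries and their signs differ, so they do not decide whether the numbers pair the libraries. With the replicate block 0 genes passed, 1929 had an unadjusted p under 0.05, and Sox9 was -0.82 (limma adjusted p = 0.273). The block made the SE smaller for every member, from 0.48 to 0.15 for Sox9 but only from 0.99 to 0.94 for Msx2. FPKM of the members rested on at least 10 reads, fewest for Shh.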
